A study of Drosophila melanogaster with 72 samples.

Results

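Skeletal muscle of O3 flies was compared with skeletal muscle of O1 flies at 1 week of age. Both are Drosophila melanogaster strains that the study's description gives as showing delayed aging relative to a parental strain, B3. The comparison used the 3 O3 libraries and the 3 O1 libraries of 1-week-old flies, 6 of the 72 RNA-seq libraries of the series. All genes that passed a filter on low counts were tested, 12445 of the 15682 in the count files. The other libraries of the age experiment were B3 at 1 week and all 3 strains at 6 weeks, and a separate day course held O3, O1 and B3 muscle sampled at 4 times of day with no age stated. The labels name no transgene and no treatment for these strains. The labels state neither the sex of the flies, the hour of dissection at 1 week, nor whether the libraries of a strain came from separate flies, so the p-values cover only the spread between libraries, some of which may be technical.

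Since both strains carry the delayed-aging phenotype, this contrast describes how the muscle transcriptomes of long-lived populations differ from each other. The RNA of fly skeletal muscle is rich in transcripts of sarcomere proteins and of enzymes of mitochondrial energy production. Cytochrome P450 enzymes oxidise hormones, lipids and foreign compounds, and the genes that encode them often differ in expression between fly strains. Innate immunity in flies runs through the Toll and Imd pathways, and Imd is the adaptor protein for which the second is named. Autophagy, in which cell contents are delivered to the lysosome, is started by the kinase Atg1.

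The O3 libraries held 27.7 to 31.6 M gene-assigned counts (M for mega) and the O1 libraries 17.2 to 19.5 M, so depth differed between the strains without overlap. The 30 genes of the sarcomere list summed to between 60580 and 69929 CPM (counts divided by a library's scaled total in M) in O3 and between 54837 and 60742 CPM in O1, and no member was at 0, so both strains carried the labelled tissue. The RNA of other tissues was uneven between libraries of the same strain. The 48 testis genes summed to 1391, 3302 and 246 CPM in O3 libraries 1, 2 and 3, and to 208, 910 and 1004 CPM in O1 libraries 1, 2 and 3. The 8 Y-linked genes followed them, with 8.07, 18.6 and 0.07 CPM in O3 and 0.059, 5.04 and 4.85 CPM in O1. In O3 library 3 and in O1 library 1, 5 of the 6 tested Y-linked genes (kl-2, kl-3, kl-5, Pp1-Y2 and Ory) had no count. The male dosage compensation RNA genes were present in all 6 libraries. In O3 libraries 1, 2 and 3, roX1 had 729, 710 and 818 CPM and roX2 had 11.7, 11.4 and 13.1 CPM. In O1 libraries 1, 2 and 3, roX1 had 725, 693 and 663 CPM and roX2 had 9.68, 11.5 and 9.11 CPM. The sex of the flies was not tested. The 39 accessory gland genes summed to 1387, 2811 and 334 CPM in O3, against 69.7, 320 and 88.3 CPM in O1, and here the strains did not overlap. O1 library 1 also stood apart in the summed genes of fat body and of gut. The sum of the 16 fat body genes was 14329, 11052 and 11021 CPM in O3, and 35308, 15313 and 15747 CPM in O1. Of these sums 1 gene, Cyp4g1, which acts in oenocytes, held 5931, 3286 and 3515 CPM in O3. In O1 it held 22173, 7134 and 6905 CPM, so most of the sum of O1 library 1 was Cyp4g1. The 42 gut genes summed to 6950, 9876 and 10892 CPM in O3, and to 18543, 11452 and 12364 CPM in O1. Single genes of sugar digestion went both ways in O1 library 1. The amylase gene Amy-p had 3297, 1621 and 1840 CPM in O1 libraries 1, 2 and 3, while the maltase gene Mal-A3 had 1.06, 103 and 117 CPM. A two-sided exact permutation test of 3 against 3 libraries cannot go below p = 0.1, which the accessory gland, fat body and gut sums reached. By the same exact test the testis and Y-linked sums gave p = 0.4. In dissected tissue, fewer cells of a type and less RNA per cell cannot be told apart.

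**Figure D1:**
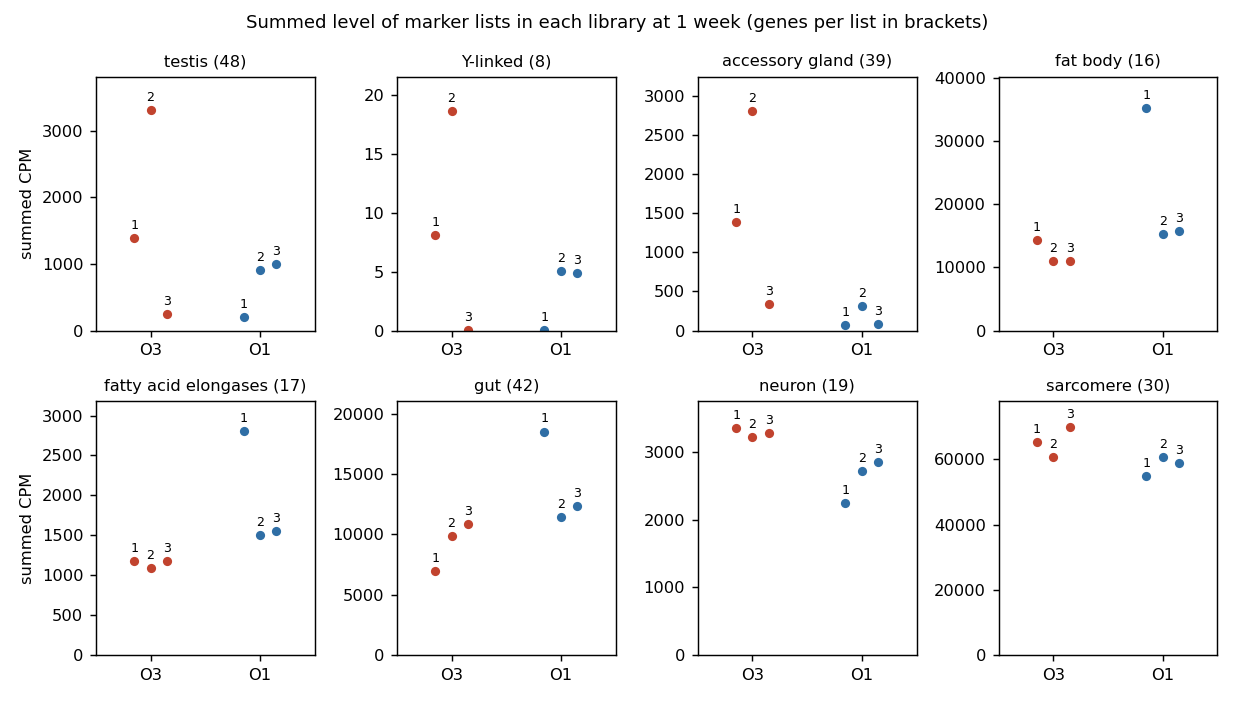
Summed CPM of 8 gene lists (vertical axes, from 0) in each 1-week library, O3 libraries in red at the left and O1 libraries in blue at the right, with the library number above each point. O3 libraries 1 and 2 stand high for testis, Y-linked and accessory gland genes, and O1 library 1 stands high for fat body, elongase and gut genes and low for neuron genes.

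At an adjusted p under 0.05 (edgeR quasi-likelihood test, Benjamini-Hochberg over all 12445 genes), 825 genes differed between O3 and O1 at 1 week, 6.63% of those tested. Of these, 426 genes (3.42%) were higher and 399 genes (3.21%) were lower in O3. Most differences were small. The median absolute log2 difference of the called genes was 0.48, 495 of them differed by less than 1.5-fold, and 199 differed by at least 2-fold, 97 higher (0.779%) and 102 lower (0.82%). The CPM values of the strains did not overlap for 795 of the 825, a trait that the test itself favours. Over all tested genes, 1371 (11%) did not overlap with O3 higher and 1076 (8.65%) with O3 lower. The median log2 difference over all tested genes was 0.04, with 7054 genes positive and 5385 negative. Without O3 library 1 the test called 371 genes, without O3 library 2 it called 427 and without O1 library 1 it called 486, whereas without O3 library 3 it called 1303. In a fit of the 6 libraries alone, which has 4 residual degrees of freedom in place of 12, 24 genes were called.

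A small set of genes was called between O3 and O1 at 1 week in every alternative fit. It comprised 21 genes that were called in the same direction in all 15 alternative fits at 1 week, 8 higher and 13 lower in O3. The fit of the 6 libraries alone set this size. In every alternative but that fit, 99 genes were called in the same direction, 66 higher and 33 lower. The 21 genes were picked out after their values were seen, and 6 of them (Atg1, CG14223, CG33926, GluRIIC, imd and Muc30E) also met the rule for named genes. The strain difference of 18 of the 21 was called in the same direction at 6 weeks and that of 20 over the day. The 6-week libraries did not enter the 1-week difference itself, but both ages shared 1 estimate of each gene's spread. The day libraries were fitted separately. The CPM values of O3 and O1 did not overlap for 18 of the 21 at 6 weeks and for 14 over the day. At 1 week the absolute log2 differences of the 21 ran from 0.61 to 3.73.

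Atg1, the kinase that initiates autophagy, had 185, 189 and 203 CPM in the 3 O3 libraries, against 65.6, 72.6 and 67.6 CPM in the 3 O1 libraries. Every O3 library was far above every O1 library, and the log2 difference was 1.49 ± 0.0599 (SE, adjusted p = 7.57e-09), the smallest p among the 21 genes. The B3 libraries of the same age, at 81.3, 83.5 and 82.7 CPM, lay near O1. At 6 weeks Atg1 had 188, 203 and 203 CPM in O3 and 73.7, 78.5 and 75.1 CPM in O1, and over the day the lowest of 11 O3 libraries (131 CPM) was above the highest of 10 O1 libraries (77.6 CPM). The rest of the autophagy list did not move with it. Of its 15 tested members Atg1 was the one called higher. Atg9 and Atg12 were called lower by 0.31 and 0.49 on the log2 scale (adjusted p = 0.0182 and 0.0482), and the list's median was -0.07. In either direction, 6.63% of all tested genes were called at 1 week. Neither Atg9 nor Atg12 was called without O3 library 1, without O3 library 2 or without O1 library 1.

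The adaptor gene imd had 33, 30.9 and 37.8 CPM in O3, against 17.5, 16.8 and 17.1 CPM in O1. The groups did not overlap, the log2 difference was 0.98 ± 0.0775 (adjusted p = 6.61e-06), and B3 at 22.3, 23.3 and 21.6 CPM lay between them. The same gap was seen at 6 weeks, with 29.9, 32.9 and 34.4 CPM in O3 and 17.6, 16.7 and 18.1 CPM in O1. Muc30E, which encodes a mucin, a heavily glycosylated secreted protein, had 25.8, 19.2 and 21.4 CPM in O3 and 3.37, 3.45 and 4.25 CPM in O1. Its log2 difference of 2.59 ± 0.196 (adjusted p = 4.33e-06) was the largest among the 8 higher genes, and B3 (4.63, 3.55 and 2.53 CPM) lay with O1. CG42684, named raskol in RefSeq and encoding a Ras GTPase-activating protein, had 181, 151 and 175 CPM in O3 and 71, 65.2 and 70.3 CPM in O1. It differed by 1.3 on the log2 scale (adjusted p = 3.17e-07), and its B3 libraries, at 68.3, 65.4 and 68.6 CPM, overlapped those of O1. The gene tun had 42.5, 44.7 and 49.2 CPM in O3 and 20.6, 22.2 and 23.8 CPM in O1, with B3 (44.1, 38.8 and 42.4 CPM) nearer O3. CG12116, CG10553 and CG3301 completed the higher genes, with log2 differences of 1.03, 0.83 and 0.66.

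The 13 lower genes included GluRIIC, an essential subunit of the glutamate receptor by which fly muscle receives its nerve input. It had 8.6, 8.91 and 9.21 CPM in O3, against 22.3, 20.8 and 18.6 CPM in O1, and B3 had 32.5, 31.7 and 29.9 CPM. O3 was below both other strains in every library, and the log2 difference from O1 was -1.21 ± 0.0779 (adjusted p = 1.41e-06). GluRIIC was the one called member among the 7 tested genes of the neuromuscular junction list, where 6.63% of all genes were called. A further receptor subunit, GluRIIA, had 7.12, 7 and 7.07 CPM in O3 and 11.2, 9.01 and 7.49 CPM in O1 (adjusted p = 0.0533). The DNA double-strand break repair gene mre11 had 9.17, 8.39 and 10.7 CPM in O3 and 23.4, 23.3 and 24.5 CPM in O1, a log2 difference of -1.34 (adjusted p = 1.6e-05). Here B3, at 9.39, 8.12 and 8.74 CPM, overlapped O3. Ppcs, which encodes an enzyme of coenzyme A synthesis, had 28.4, 30.6 and 27.1 CPM in O3 and 52.4, 47 and 45.8 CPM in O1 (log2 difference -0.75, adjusted p = 3.76e-06). CG5224, which RefSeq names GstE11, a glutathione transferase, had 24.2, 23.3 and 27.8 CPM in O3 and 54.2, 57.9 and 53.6 CPM in O1 (log2 difference -1.14, adjusted p = 8.3e-06), and B3 lay near O3 with 19.5, 20.6 and 21.6 CPM.

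The largest of these falls was in CR32745, a non-coding RNA gene, with 0.227, 0.278 and 0.175 CPM in O3 and 3.25, 2.97 and 3 CPM in O1 (log2 difference -3.73, adjusted p = 0.000205). The O3 values were near the level of 3 counts, which corresponded to between 0.095 and 0.175 CPM in these 6 libraries. CG33926, named Srg3 in RefSeq, had 4.58, 4.59 and 6.69 CPM in O3 and 39.6, 27.6 and 30.4 CPM in O1, while B3 had 252, 213 and 263 CPM. The order O3, O1, B3 held in every library, and the log2 difference between O3 and O1 was -2.62 ± 0.222 (adjusted p = 1.34e-05). The other lower genes were CG14223, CG17107, CG31683, CG33296, CG18858, CG10340 and yellow-h, a member of the yellow gene family. CG31683 had 36, 36.8 and 37.8 CPM in O3 and 88, 87.2 and 69.9 CPM in O1, and CG18858 had 50.4, 48.7 and 51.7 CPM in O3 and 93.7, 90.4 and 81.9 CPM in O1. Across the 21 genes, the B3 mean lay between the O3 and O1 means for 7, beyond the O3 mean for 4 and beyond the O1 mean for 10.

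**Figure D2:**
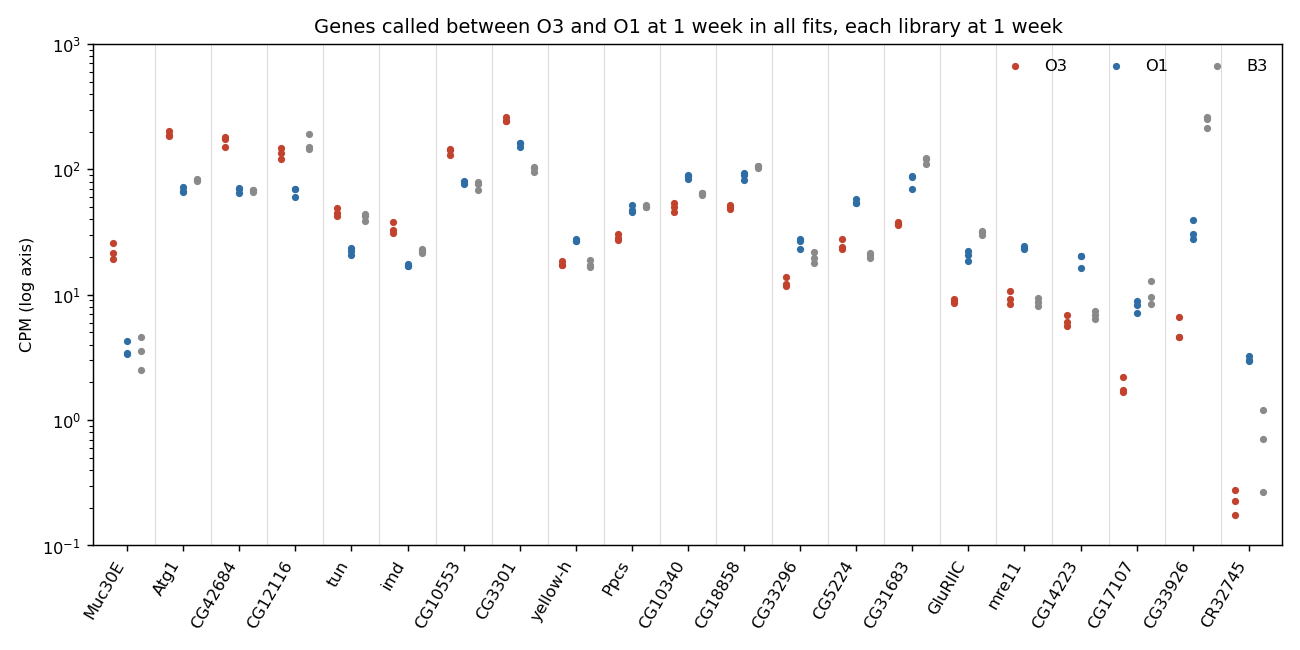
CPM (vertical log axis) of the 21 genes called between O3 and O1 at 1 week in all fits, with 1 point per 1-week library, O3 in red, O1 in blue and B3 in grey, the genes ordered from those higher in O3 at the left to those lower at the right. O3 and O1 do not overlap for any of these genes, and B3 lies near O1 for Muc30E, Atg1 and CG42684 and near O3 for mre11, CG14223 and CG5224.

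Of the 825 genes called at 1 week, 210 were called in the same direction at 6 weeks, 25.5% of the 1-week calls and 32.7% of the 643 genes called at 6 weeks (5.17% of those tested). The calls of O3 against O1 at 6 weeks were 480 higher (3.86%) and 163 lower (1.31%), which became 411 and 230 with RLE scaling and 733 and 517 with DESeq2. A further 5 were called in the opposite direction. Over the day 3773 genes were called of 12295 tested, 30.7%. There, 423 of the 806 genes called at 1 week and tested in both were called in the same direction and 35 in the opposite one, so the shared calls were 52.5% of the 1-week calls and 11.5% of the 3684 day calls that were also tested at 1 week. Alignments that were not unique came to 30.8 to 45.4 per 100 gene counts in the O3 day libraries and 19.8 to 33.8 in the O1 day libraries. At 1 week they came to between 0.419 and 0.466 in the O3 and O1 libraries. The part of this in the day calls was not tested. In all 3 comparisons 173 genes were called the same way, 94 higher and 79 lower in O3. Among the 94, the B3 mean at 1 week was nearer O1 for 55 and nearer O3 for 39. Among the 79, it was nearer O1 for 42 and nearer O3 for 37.

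Genes called higher in all 3 comparisons, with mean log2 CPM of at least 2, were ranked by their smallest absolute log2 difference. The top 8 were Muc30E, CG15369, CG42876, CG32750, Atg1, CG15547, CG5322 and Cyp12d1-d. CG15369, which encodes a cystatin-like protease inhibitor, had 15.2, 16.4 and 16.9 CPM in O3 and 5.31, 2.65 and 2.88 CPM in O1 at 1 week (log2 difference 2.16, adjusted p = 0.00201). The gap was wider at 6 weeks, with 12.5, 12.8 and 6.26 CPM in O3 and 0.987, 0.476 and 0.393 CPM in O1, though the change of the difference with age was not called. B3 had the most CG15369, at 45.6, 63.2 and 51.1 CPM. CG5322, which RefSeq names LManI, a lysosomal alpha-mannosidase, had 73.1, 55.7 and 79.7 CPM in O3 and 20.1, 25.8 and 34.4 CPM in O1 (log2 difference 1.38, adjusted p = 0.00141). CG42876 had 8.37, 9.19 and 11.5 CPM in O3 and 3.42, 1.01 and 2.16 CPM in O1. Its O3 libraries at 6 weeks were higher still in the plot of the ranked genes, again without overlap with O1.

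By the same ranking, the top 8 among the genes called lower in all 3 comparisons were CG43085, CG4757, CG4734, tgy, CG3253, CG43351, CG14223 and Obp56a. CG43085 had 0.947, 1.32 and 0.35 CPM in O3 and 22.7, 26.9 and 18.8 CPM in O1, a log2 difference of -4.7 ± 0.323 (adjusted p = 1.94e-06). B3, with 34.4 ± 8.14 CPM (SD, n = 3), was on the O1 side. CG4757, a carboxylesterase gene, had 28.9, 25.2 and 25.2 CPM in O3 and 305, 212 and 118 CPM in O1 (log2 difference -3, adjusted p = 3.6e-05). At 6 weeks it had 56.7, 43.7 and 37.1 CPM in O3 and 213, 202 and 191 CPM in O1. The glycosyltransferase gene tgy had 1.67, 2.19 and 4.41 CPM in O3 and 16.4, 9.86 and 9.89 CPM in O1. CG3253 had 2.84, 2.96 and 2.63 CPM in O3 and 15.7, 7 and 13.2 CPM in O1, with B3 at 1.74, 1.22 and 2 CPM, on the O3 side.

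**Figure D3:**
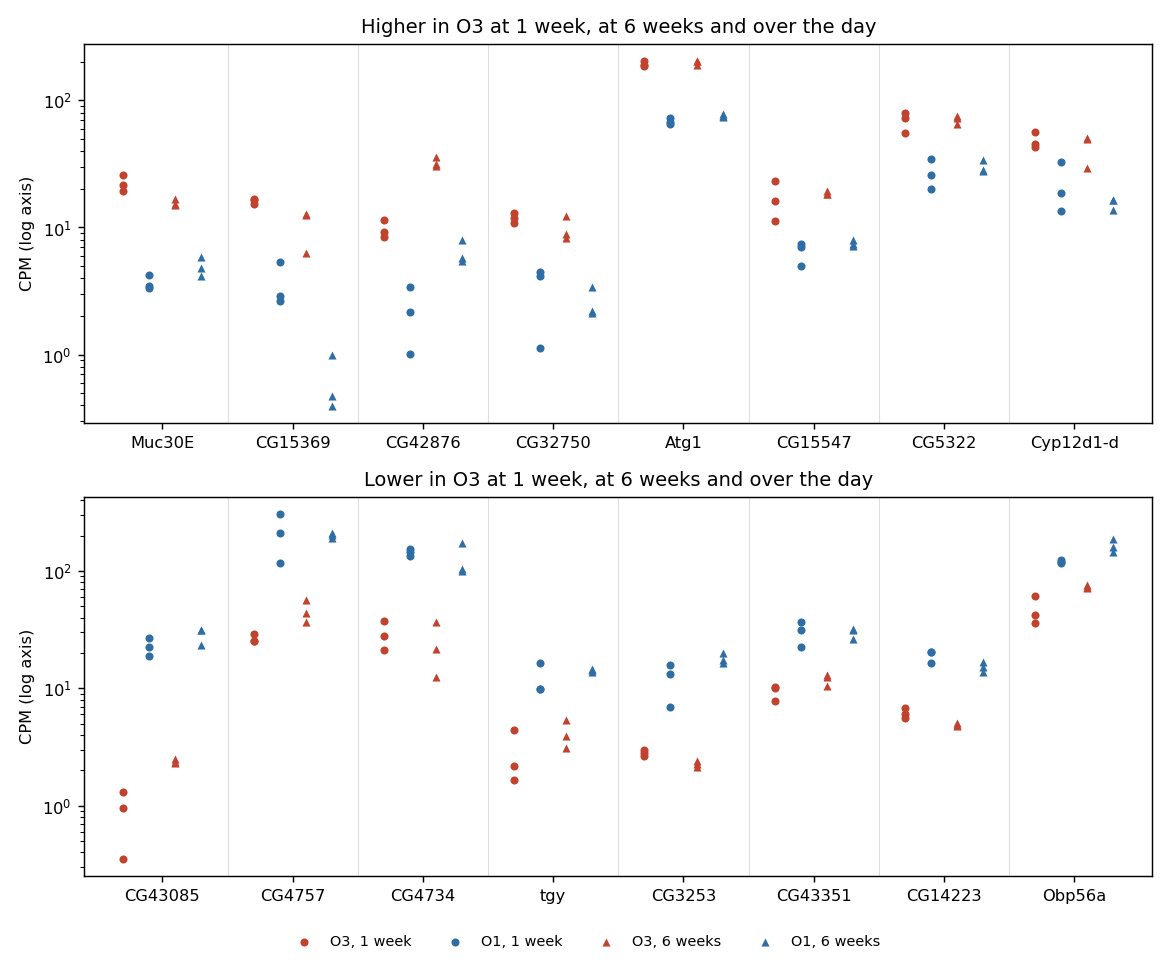
CPM (vertical log axis) of the 8 top-ranked genes called higher in O3 in all 3 comparisons (top) and the 8 called lower (bottom). O3 is in red, left of O1 in blue, for each age. Circles mark the 3 libraries at 1 week and triangles the 3 at 6 weeks. The O3 and O1 points do not overlap within either age for these 16 genes, which were chosen for being called in both ages and over the day.

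Odorant binding proteins are small secreted carriers of hydrophobic molecules. Of the 29 tested genes, 2 rose and 5 fell in O3 at 1 week (24.1% called, against 6.63% over all genes). Of these, 1 of the higher and 4 of the lower were called the same way in all 3 comparisons. This list was added after earlier values were seen. Obp56a had 42.4, 36.2 and 61.1 CPM in O3 and 118, 120 and 124 CPM in O1 (log2 difference -1.37, adjusted p = 9.33e-05). Obp57a had 25.3, 23.8 and 32.7 CPM in O3 and 43.9, 42.3 and 37.4 CPM in O1, and the family member Obp57b had 0.833, 0.661 and 0.841 CPM in O3 and 3.25, 2.65 and 2.16 CPM in O1. Obp49a moved the other way, with 47.1, 45.1 and 56.4 CPM in O3 and 34.2, 34.5 and 31.8 CPM in O1 (log2 difference 0.56, adjusted p = 0.00147). Depending on which library was left out, the number of lower members ran between 3 and 5.

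Cytochrome P450 genes differed in both directions. Of 81 tested, 9 rose and 7 fell in O3 (19.8% called, against 6.63% over all genes), and the median log2 difference was -0.09, against 0.04 over all genes. The 9 higher genes were Cyp12a5, Cyp4e3, Cyp6a9, Cyp6g1, Cyp6a23, Cyp12a4, Cyp12d1-d, Cyp6a8 and Cyp4d1, and all but Cyp4d1 were also called higher at 6 weeks and over the day. Cyp6g1, best known for conferring insecticide resistance when overexpressed, had 1010, 867 and 1264 CPM in O3 and 436, 411 and 441 CPM in O1. Its log2 difference was 1.29 ± 0.221 (adjusted p = 0.00423). At 6 weeks it had 1402, 1691 and 2948 CPM in O3 and 597, 606 and 730 CPM in O1, and at 1 week B3 had 216, 270 and 300 CPM, below both. Cyp12a5, a member of a P450 family found in mitochondria, had 61.9, 56.6 and 75.5 CPM in O3 and 29, 28.9 and 23.3 CPM in O1 (log2 difference 1.25, adjusted p = 4.8e-05).

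Cyp4e3 had 124, 91.7 and 115 CPM in O3 and 53.8, 63.4 and 62 CPM in O1 at 1 week (log2 difference 0.88, adjusted p = 0.00163). Its O3 level was higher at 6 weeks, with 440, 456 and 341 CPM in O3 and 104, 106 and 82.5 CPM in O1, and the strain difference there was larger than at 1 week (adjusted p of the change = 0.0171). Cyp12d1-d had 56.6, 43.3 and 45.3 CPM in O3 and 18.7, 32.7 and 13.4 CPM in O1, a difference that was not called when O3 library 1, O3 library 2, O1 library 1 or O1 library 3 was left out. This gene has a near-identical neighbour, Cyp12d1-p, and how the authors' counting divided reads between them is not given in the sources used here. Without O1 library 1, 4 of the higher and 3 of the lower P450 calls were made.

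The 7 lower P450 genes were Cyp12c1, Cyp4aa1, Cyp6a14, Cyp4p1, Cyp4g1, Cyp6a17 and Cyp6d2. Of these, Cyp6a14 was also called lower at 6 weeks and over the day, with 6.63, 6.44 and 6.16 CPM in O3 and 8.27, 15.9 and 14.9 CPM in O1. Cyp6d2 was lower in O3 at 1 week by 0.4 on the log2 scale (adjusted p = 0.0486) but called higher at 6 weeks. Among other detoxification genes, GstD1 and GstD2 fell, 2 of 20 glutathione transferases in the list (10%, against 6.63% over all genes); CG5224 (GstE11), described above, is not in the list. GstD1 had 606, 613 and 691 CPM in O3 and 902, 919 and 826 CPM in O1 (log2 difference -0.47, adjusted p = 0.018), a call lost without O3 library 1, O3 library 2 or O1 library 1. One of 18 UDP-glucuronosyltransferases rose, Ugt86De, with 4.62, 4.49 and 5.04 CPM in O3 and 1.54, 0.742 and 1.14 CPM in O1 (log2 difference 2.05, adjusted p = 0.00319).

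Some muscle contraction and energy genes rose modestly in O3 at 1 week, while most members of these lists did not pass the test. In the sarcomere list 8 of 30 genes rose and none fell (26.7% called, against 6.63% over all genes). The median log2 difference was 0.17. Flightin (fln), a thick filament protein of flight muscle, had 851, 755 and 842 CPM in O3 and 463, 554 and 573 CPM in O1 (log2 difference 0.62, adjusted p = 0.0148). Tropomyosin 2 (Tm2) had 1460, 1385 and 1677 CPM in O3 and 1128, 1161 and 1221 CPM in O1 (log2 difference 0.37, adjusted p = 0.00481). The troponin C gene TpnC4 had 1229, 1143 and 1356 CPM in O3 and 813, 910 and 971 CPM in O1 (log2 difference 0.47, adjusted p = 0.0137). The other called members were Act88F, Tm1, Mlc2, Strn-Mlck and bt, the gene for the giant kinase projectin. In each of these the 3 O3 libraries lay above the 3 O1 libraries. Act88F and Tm2 were called without each library in turn, whereas fln and TpnC4 were not called without O1 library 1, nor fln without O3 library 1.

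Act88F, the actin of the indirect flight muscles, had the largest difference in the list, with 1082, 951 and 960 CPM in O3 and 517, 492 and 591 CPM in O1 (log2 difference 0.9 ± 0.152, adjusted p = 0.00384). At 6 weeks it was on the other side, with 256, 200 and 194 CPM in O3 and 349, 351 and 369 CPM in O1 (log2 difference -0.72, adjusted p = 0.0138). The change of the strain difference between the ages passed the test (adjusted p = 0.00748). The actin genes are close copies of each other, so how reads were divided among them is uncertain. The other actins of the list were not called at 1 week. Act57B had 820, 857 and 971 CPM in O3 and 1193, 857 and 984 CPM in O1, and Act79B had 1917, 1860 and 2216 CPM in O3 and 1827, 1883 and 2076 CPM in O1.

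All 12 genes of the ATP synthase list had positive log2 differences, from 0.1 to 0.48, and 5 of them rose (41.7%, against 6.63% over all genes). The alpha subunit gene blw had 4800, 4472 and 4839 CPM in O3 and 3006, 3537 and 3559 CPM in O1 (log2 difference 0.48, adjusted p = 0.00259). ATPsyn-gamma had 1488, 1369 and 1540 CPM in O3 and 962, 1158 and 1165 CPM in O1 (log2 difference 0.42, adjusted p = 0.00391). Their groups did not overlap, and both were called without each library in turn. The other 3 were ATPsyn-beta, ATPsyn-b and CG1746, which RefSeq names ATPsynC.

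Among 12 citrate cycle genes 4 rose and none fell (33.3% called, against 6.63% over all genes, median 0.17). The citrate synthase gene kdn had 2454, 2334 and 2545 CPM in O3 and 1330, 1771 and 2082 CPM in O1 (log2 difference 0.5, adjusted p = 0.0281), and the mitochondrial malate dehydrogenase gene Mdh2 had 1322, 1219 and 1361 CPM in O3 and 881, 976 and 1041 CPM in O1 (log2 difference 0.43, adjusted p = 0.00445). Mdh2 was called without each library in turn, and kdn was not called without O1 library 1, O3 library 1 or O3 library 2. Of 21 genes of glycolysis, glycogen and trehalose metabolism 7 rose and none fell (33.3% called, median 0.13). Gapdh1, a glyceraldehyde-3-phosphate dehydrogenase gene, had 4228, 3784 and 4230 CPM in O3 and 2252, 3235 and 3294 CPM in O1 (log2 difference 0.48, adjusted p = 0.0266). The glycogen phosphorylase gene GlyP had 2476, 2191 and 2425 CPM in O3 and 1863, 2082 and 2049 CPM in O1 (log2 difference 0.24, adjusted p = 0.0496). In the respiratory chain list 3 of 37 rose (8.11%, median 0.08), close to the share over all genes. Of 11 muscle calcium handling genes 2 rose, where 6.63% of all genes were called. They were Ca-alpha1D, a calcium channel gene, and Ca-P60A, the calcium pump of the sarcoplasmic reticulum. Ca-P60A lost its call whichever of the 6 libraries was left out.

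These counts depended on O1 library 1, the library with the high fat body sum, and on O3 library 1. Without O1 library 1, 3 sarcomere genes, 3 ATP synthase genes, 2 citrate cycle genes and 2 glycolysis, glycogen and trehalose genes were called, and no respiratory chain gene. Without O3 library 1, no glycolysis, glycogen or trehalose gene was called, and 4 sarcomere genes were. The part of fat body RNA in these differences was not tested. The lists had other calls in the other comparisons. At 6 weeks none of the sarcomere genes was called higher and 6 were called lower (median -0.15), and over the day 23 of 30 were called lower (median -0.23). The respiratory chain list had 19 of 37 genes called higher at 6 weeks (median 0.27) and 25 called lower over the day (median -0.17). Of the 12 ATP synthase genes 3 were called higher at 6 weeks (median 0.14), those that RefSeq names ATPsynG, ATPsynE and ATPsynCF6, none of which was called at 1 week. Over the day 5 ATP synthase, 7 citrate cycle and 10 glycolysis, glycogen and trehalose genes were called lower. Tests of the change of the strain difference between 1 and 6 weeks called Act88F among the listed genes. They also called CG15434 and CG3214, which RefSeq names as complex I subunits and which the respiratory chain list does not hold.

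**Figure D4:**
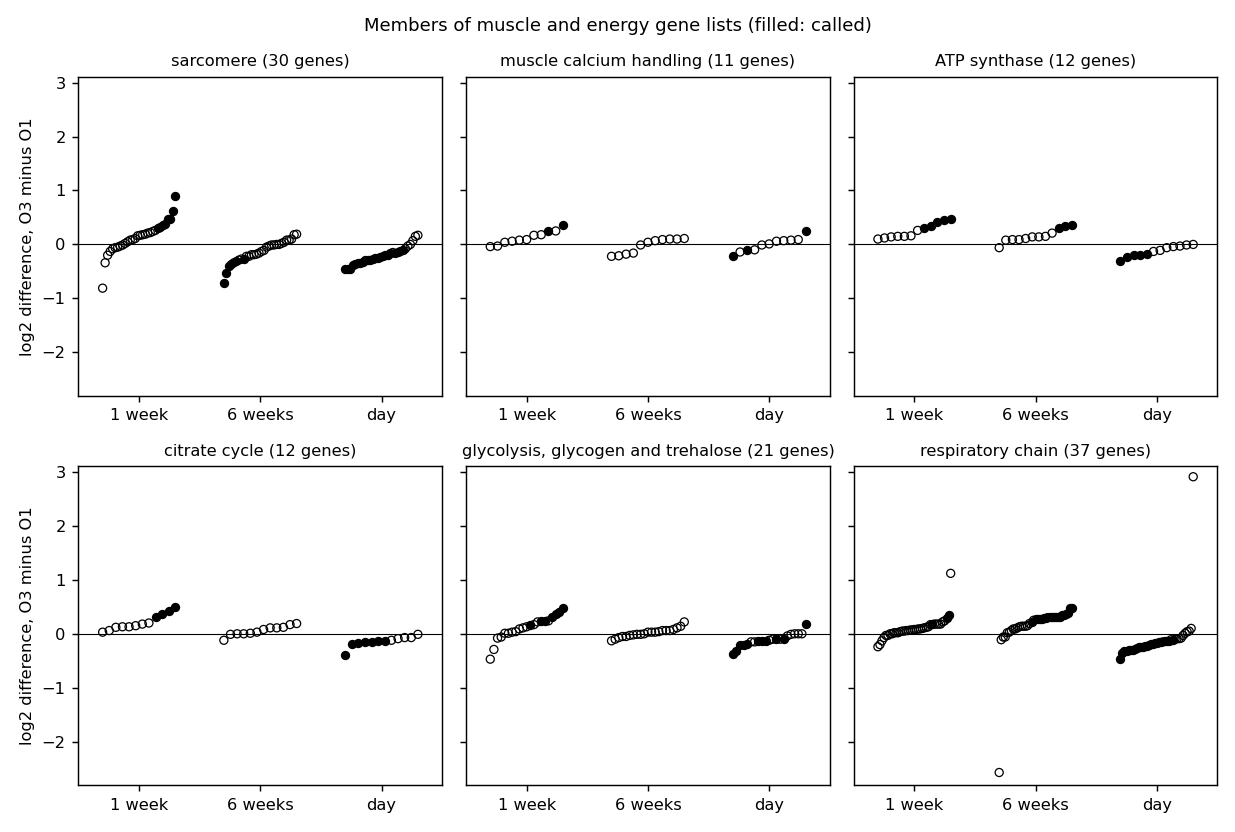
The log2 difference between O3 and O1 (vertical axis, positive where O3 was higher) of each member of 6 muscle and energy lists at 1 week, at 6 weeks and over the day, sorted within each comparison, with called members filled. Filled points lie above 0 at 1 week in all 6 panels, and below 0 over the day in most of them. The open point near 3 over the day in the respiratory chain panel is CG2014, which had 1.33, 5.01 and 0 CPM in O3 and 0, 1.59 and 1.32 CPM in O1 at 1 week.

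Some genes of neurons also rose in O3. All 19 genes of the neuron list had positive log2 differences (median 0.28) and 7 rose (36.8%, against 6.63% over all genes). The list summed to 3359, 3231 and 3286 CPM in O3 and to 2248, 2724 and 2853 CPM in O1 (exact permutation p = 0.1, the smallest possible). The active zone gene brp had 160, 153 and 159 CPM in O3 and 101, 121 and 137 CPM in O1 (log2 difference 0.4, adjusted p = 0.0316). VGlut, the vesicular glutamate transporter of motor neurons, had 95, 95.5 and 96.9 CPM in O3 and 78.3, 82.6 and 85.2 CPM in O1 (log2 difference 0.22, adjusted p = 0.0146). O1 library 1 was the lowest for the sum, and without it 1 neuron gene was called. Without O3 library 1, 3 were called, and without O3 library 2, 2. None of the 11 genes of the glia list was called by edgeR or DESeq2 (2 at an unadjusted p under 0.05), and the glia sums, 2938 to 3119 CPM in O3 and 2971 to 3107 CPM in O1, overlapped.

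Of the core clock genes 1 passed the test, where 6.63% of all genes did. Among 8 tested, Pdp1, a transcriptional activator of Clk, was lower in O3, with 587, 565 and 642 CPM in O3 and 773, 725 and 694 CPM in O1 (log2 difference -0.29 ± 0.0647, adjusted p = 0.0182), and this call was lost without O3 library 1, O3 library 2 or O1 library 1. The light-sensitive repressor gene tim had 475, 390 and 571 CPM in O3 and 784, 683 and 621 CPM in O1. Its groups did not overlap, but the difference of -0.54 ± 0.182 did not pass the test (adjusted p = 0.0923). Its partner per had 45.8, 45.9 and 60.9 CPM in O3 and 73, 67.1 and 64.8 CPM in O1 (log2 difference -0.42, adjusted p = 0.068). Without O3 library 3 the list had 3 lower calls. The activator gene Clk, which cycles in antiphase to per and tim, had 21.3, 27.7 and 18 CPM in O3 and 18.2, 14.8 and 19 CPM in O1 (log2 difference 0.36, adjusted p = 0.331). The blue-light receptor gene cry, the repressor genes cwo and vri and the activator gene cyc were not called, with log2 differences of 0.27, 0.16, -0.22 and -0.09. None of 14 clock regulators (kinases, phosphatases and ubiquitin ligases) was called by edgeR, while DESeq2 called 3 (3 at an unadjusted p under 0.05). Since tim and per transcripts swing with the hour and the labels give no hour of dissection, strain and hour cannot be told apart for these genes.

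A few immune genes fell in O3. Of 39 genes of the antimicrobial and humoral list 4 fell and none rose (10.3% called, against 6.63% over all genes), 35 did not pass, and 33 had negative log2 differences (median -0.29). IM1, a short secreted immune peptide that RefSeq names BomS1, had 49.2, 56.8 and 67.8 CPM in O3 and 186, 96.6 and 120 CPM in O1 (log2 difference -1.21 ± 0.232, adjusted p = 0.00807). The antifungal peptide gene Drs had 159, 149 and 111 CPM in O3 and 332, 274 and 218 CPM in O1 (log2 difference -0.97, adjusted p = 0.0227), and the antibacterial peptide gene Def had 4.43, 3.52 and 3.4 CPM in O3 and 7.38, 8.38 and 6.29 CPM in O1 (log2 difference -0.96, adjusted p = 0.028). PGRP-LC, the receptor upstream of Imd, had 90.1, 83.5 and 102 CPM in O3 and 139, 103 and 107 CPM in O1 (log2 difference -0.34, adjusted p = 0.0489). IM1 was called without each library in turn. Drs was not called without O1 library 1, O3 library 2 or O3 library 3, PGRP-LC not without O1 library 1, O3 library 1 or O3 library 2, and Def not without O1 library 1, O1 library 2, O3 library 2 or O3 library 3. Of the whole list, 1 member of the list was called without O1 library 1 and 1 without O3 library 2. At 6 weeks none of these 4 was called, and over the day IM1 was called lower (log2 difference -0.72) and PGRP-LC higher (0.1, adjusted p = 0.0188). Over the day 7 members of the list were called higher in O3 and 4 lower. Listericin, whose difference at 1 week was 0.15 (adjusted p = 0.66), was called higher at 6 weeks (0.75) and over the day (0.91). In the Imd pathway list, chosen after imd was seen, imd rose and PGRP-LC and eff, a ubiquitin-conjugating enzyme gene, fell, 3 of 16 (18.8%). The stress gene vir-1, induced by virus infection, had 795, 733 and 883 CPM in O3 and 1079, 1044 and 907 CPM in O1 (adjusted p = 0.0365), a call lost without O3 library 1, O3 library 2, O1 library 1 or O1 library 2.

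Some genes of fat body and some fatty acid elongase genes fell in O3, and many of these calls rested on O1 library 1. Of 14 fat body genes 3 fell, Cyp4g1, fit and Lsp1alpha, and none rose (21.4% called, against 6.63% over all genes, median -0.8). Obp99a was the one member with a positive log2 difference (1.19). Cyp4g1, which makes cuticular hydrocarbons in oenocytes, had 5931, 3286 and 3515 CPM in O3 and 22173, 7134 and 6905 CPM in O1 (log2 difference -1.51, adjusted p = 0.0298). It shares the O1 library 1 excess with fit, a feeding-related secreted peptide gene, which had 15.9, 15.1 and 9.7 CPM in O3 and 64.9, 38 and 30.9 CPM in O1. No fat body gene was called without O1 library 1, without O3 library 2 or without O3 library 3. Fatty acid elongases lengthen fatty acids, including those that become cuticular hydrocarbons. In that list, chosen after its values were seen, 6 of 16 fell and none rose (37.5% called, against 6.63% over all genes, median -0.71). CG9458 had 25.7, 15.4 and 16.8 CPM in O3 and 116, 35.9 and 38.5 CPM in O1 (log2 difference -1.71, adjusted p = 0.0203), and CG33110 averaged 107 ± 12.7 CPM in O3 and 161 ± 6.71 CPM in O1 (SD, n = 3 each; log2 difference -0.59, adjusted p = 0.00141). O1 library 1 was the highest in CG9458, whereas the O1 libraries were close together in CG33110. CG9458 was not called without O1 library 1 or without O3 library 2, CG33110 was called without each library in turn, and without O1 library 1, 3 elongases were called.

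The yolk protein genes, which female fat body and ovary express, were low in both strains at 1 week, and Yp1 and Yp2, 2 of the 3, fell in O3. Yp1 had 0.492, 0.487 and 0.42 CPM in O3 and 4.43, 1.17 and 3.41 CPM in O1 (log2 difference -2.67 ± 0.483, adjusted p = 0.0056), and Yp2 had 0.379, 0.522 and 0.735 CPM in O3 and 1.48, 1.11 and 2.04 CPM in O1 (log2 difference -1.49, adjusted p = 0.0182). Yp3 had 2.12, 2.44 and 3.15 CPM in O3 and 11.9, 2.81 and 4.49 CPM in O1, which overlapped, and did not pass (log2 difference -1.31, adjusted p = 0.0676). Yp1 was called without each library in turn, and Yp2 was not called without O3 library 1, O3 library 2 or O1 library 3. At 6 weeks Yp1 had 2.39, 2.2 and 1.49 CPM in O3 and 75.9, 94.6 and 36.2 CPM in O1. Of 11 ovary genes tested none was called by edgeR or DESeq2 (3 at an unadjusted p under 0.05), and the ovary sums were 242 to 258 CPM in O3 and 259 to 281 CPM in O1. The juvenile hormone epoxide hydrolase genes Jheh2 and Jheh3, whose products degrade juvenile hormone, fell, 2 of 11 in the juvenile hormone list. Over all genes 6.63% were called. Jheh3 had 69.4, 72.4 and 87.2 CPM in O3 and 150, 139 and 122 CPM in O1 (log2 difference -0.85, adjusted p = 0.00743). Jheh1, of the same family, went the other way but was not called at 1 week (log2 difference 0.22, adjusted p = 0.1). It was called higher in O3 at 6 weeks (0.61, adjusted p = 0.000336) and over the day (0.48, adjusted p = 1.59e-07). Of 41 tested gut genes edgeR called none and DESeq2 called 3 (9 at an unadjusted p under 0.05).

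The largest falls outside these lists also followed O1 library 1 in several genes. CG10725 had 0.568, 2.44 and 2.87 CPM in O3 and 39.4, 6.73 and 6.23 CPM in O1 (log2 difference -3.15 ± 0.844, adjusted p = 0.04). CG32557, which RefSeq names Mco4, a multicopper oxidase, had 6.33, 11.3 and 12.2 CPM in O3 and 74.3, 18.2 and 25.9 CPM in O1, and CG33346 had 57.9, 50.3 and 87.7 CPM in O3 and 381, 187 and 208 CPM in O1. These 3 calls were lost without O1 library 1, without O3 library 1 and without O3 library 2. CG18180, a serine protease gene, had 21.5, 42.1 and 35.1 CPM in O3 and 355, 89.4 and 161 CPM in O1 (log2 difference -2.61, adjusted p = 0.00868), and Cyp4aa1 had 4.51, 2.4 and 3.64 CPM in O3 and 28.9, 8.85 and 8.39 CPM in O1. Both were called without each library in turn. The lectin gene lectin-37Da went the other way within O1, with 10.6, 6.79 and 13.8 CPM in O3 and 22.9, 53.1 and 61.3 CPM in O1, so O1 library 1 was the lowest of its strain there.

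Among the largest rises, 5 were highest in O3 library 2, the library with the most testis and accessory gland RNA. Of 34 tested accessory gland genes 4 were called higher (11.8%, against 6.63% called over all genes), Sfp33A3, Sfp38D, Sfp93F and lectin-46Ca. All 34 had positive log2 differences, and the list's median was 3.93. The seminal fluid gene Sfp33A3 had 31.9, 51.2 and 5.67 CPM in O3 and 0.886, 4.56 and 0.3 CPM in O1 (log2 difference 3.93 ± 0.984, adjusted p = 0.0301). The seminal fluid gene BG642312 had 125, 358 and 34.2 CPM in O3 and 2.89, 23.8 and 1.74 CPM in O1. CG43788 had 40, 91 and 9.21 CPM in O3 and 0.118, 7.48 and 0.719 CPM in O1, CG6071 had 16.9, 31.8 and 4.27 CPM in O3 and 1.71, 3.92 and 1.44 CPM in O1, and Vha100-4, a proton pump subunit gene, had 9.43, 21.6 and 16.2 CPM in O3 and 0.295, 4.51 and 2.46 CPM in O1. None of these 5 genes was called when O3 library 2 was left out. No accessory gland gene was called without O3 library 1, without O3 library 2, without O1 library 1 or without O1 library 3. Neither edgeR nor DESeq2 called a gene of the testis list (46 tested, 1 at an unadjusted p under 0.05) or of the Y-linked list (6 tested, 0).

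Other large rises were more even over the O3 libraries. CG3091, which encodes a protein of the CRAL-TRIO lipid-binding family, had 87.9, 73.3 and 96 CPM in O3 and 15.4, 12.5 and 30.7 CPM in O1 (log2 difference 2.14 ± 0.252, adjusted p = 0.000252). At 6 weeks it had 112, 105 and 97.8 CPM in O3 and 19.2, 26.2 and 29.2 CPM in O1, and at 1 week B3 lay between the strains at 57.7, 58 and 58.2 CPM. CG11093, which RefSeq names fuss, a relative of the Ski and Sno corepressors, had 9.77, 10.1 and 9.11 CPM in O3 and 2.89, 3.07 and 2.16 CPM in O1 (log2 difference 1.83 ± 0.162, adjusted p = 1.82e-05). CG32750 had 13, 10.8 and 11.9 CPM in O3 and 1.12, 4.14 and 4.49 CPM in O1, the lowest value being O1 library 1. In the list of axonemal and ciliary genes, chosen after its values were seen, 3 of 20 rose (15%, against 6.63% called over all genes). They were Rootletin, nompB and Oseg4. The ciliary rootlet gene Rootletin had 52.1, 71.7 and 40 CPM in O3 and 15.9, 24.8 and 23.3 CPM in O1 (log2 difference 1.35, adjusted p = 0.00463), and nompB, an intraflagellar transport gene, rose in all 3 comparisons. Over the O3 libraries both genes had the same order as the testis sum, and the part of testis RNA in their difference was not tested. The tracheal chitin-modifying gene serp and the chitin-binding gene obst-B, 2 of 9 in the trachea list, likewise rose in all 3 comparisons. Neither was called at 1 week without O3 library 1 or without O1 library 1. Over all genes 6.63% were called at 1 week.

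Lists of protein synthesis, protein quality control and growth signalling had few calls. None of the 31 proteasome genes, 92 cytosolic ribosomal protein genes, 31 chaperone genes, 20 genes of insulin, FOXO and TOR signalling, 18 lipid metabolism genes, 24 cell cycle genes, 14 sugar digestion genes, 9 secreted muscle factor genes or 21 hemocyte genes was called at 1 week by edgeR. Over all 17 lists without a call, 63 of 395 genes had an unadjusted p under 0.05 and DESeq2 called 17. The medians were -0.13 for the proteasome, -0.03 for cytosolic ribosomal proteins and -0.01 for insulin, FOXO and TOR signalling. Of 71 mitochondrial ribosomal protein genes 5 fell and none rose (7.04%, median -0.01), a share near the 6.63% called over all genes. They were mRpL18, mRpL4, mRpL45, mRpL20 and mRpL39. mRpL18 had 19.5, 20 and 22.9 CPM in O3 and 27.2, 25.1 and 26.1 CPM in O1 (log2 difference -0.33, adjusted p = 0.0105) and was also called lower at 6 weeks and over the day. MtnB, a metal-binding metallothionein gene, was the one called gene of 20 in the antioxidant list, with 8.37, 14.8 and 8.65 CPM in O3 and 0.295, 2.44 and 1.74 CPM in O1 (log2 difference 2.82 ± 0.698, adjusted p = 0.0287), and it was not called without O3 library 1, O3 library 2, O1 library 1 or O1 library 3.

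A strain difference that itself changed with age was called for 13 genes, a count that turned on single libraries. At an adjusted p under 0.05, the difference between O3 and O1 at 1 week differed from that at 6 weeks for 13 genes, 0.104% of those tested, 4 with a more positive (0.0321%) and 9 with a more negative (0.0723%) difference at 1 week. DESeq2 gave 141 and 144 for O3 against O1, 1 week minus 6 weeks. The edgeR count was 1040 without O3 library 3 of 1 week and 5 without O1 library 1 of 6 weeks. Act88F and Msp-300, a giant nesprin that anchors nuclei and mitochondria in muscle, were higher in O3 at 1 week and lower at 6 weeks. Msp-300 had 2306, 2243 and 2381 CPM in O3 and 1772, 1876 and 1985 CPM in O1 at 1 week, against 1317, 1321 and 1210 CPM in O3 and 1615, 1544 and 1558 CPM in O1 at 6 weeks. CG32198, GstD2 and CG10638 were lower in O3 at 1 week. CG32198 had 1.7, 2.4 and 1.26 CPM in O3 and 4.66, 11 and 7.01 CPM in O1 at 1 week, and 19.6, 17 and 19.8 CPM in O3 and 3.98, 2.28 and 2.28 CPM in O1 at 6 weeks. Its groups exchanged order without overlap at either age.

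The gene CG15434, which RefSeq names ND-B8, a subunit of respiratory complex I, overlapped between the strains at 1 week, with 170, 167 and 176 CPM in O3 and 147, 195 and 170 CPM in O1. At 6 weeks it had 90.3, 99 and 92.3 CPM in O3 and 37.2, 43 and 34.3 CPM in O1, so the strains separated with age (adjusted p of the change = 0.00522). A further complex I gene, CG3214, named ND-B17.2, had 450, 412 and 466 CPM in O3 and 473, 519 and 487 CPM in O1 at 1 week, and 348, 341 and 314 CPM in O3 and 267, 256 and 243 CPM in O1 at 6 weeks. CG33926, among the 21 genes above, was 73.1, 70.7 and 93.1 CPM in O3 and 103, 87.2 and 149 CPM in O1 at 6 weeks, a smaller difference than at 1 week (adjusted p of the change = 0.01).

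**Figure D5:**
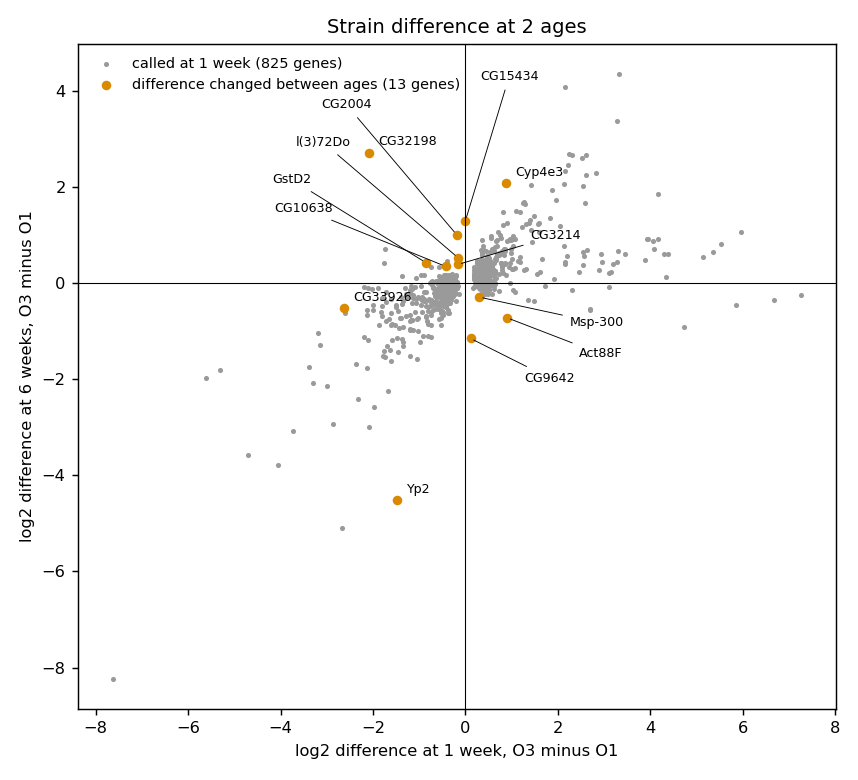
The log2 difference between O3 and O1 at 6 weeks (vertical axis) against that at 1 week (horizontal axis), positive where O3 was higher, with the 825 genes called at 1 week in grey and the 13 genes whose difference changed between the ages in orange and named. CG32198 lies at the upper left of the origin, Act88F and Msp-300 lie at its lower right, and CG15434 lies at 0 on the horizontal axis.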

How the data were processed

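RNA from skeletal muscle, extracted with Trizol per the labels' protocols, was sequenced as stranded mRNA libraries. The authors deposited whole-number read counts per gene for each library; the submitters' processing notes name BWA, STAR and HTSeq and the dm3 build, while the role of each, the annotation and the strand setting are not stated there. Rows that name no gene were dropped. In the 6 libraries, reads assigned to no feature were 20.8% to 26.6%.

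Counts were analysed with edgeR 4.0.16 (R 4.3.3). A mean per strain and age was fitted over all 18 age libraries with TMM scaling and the filterByExpr filter (12445 genes, 12 residual degrees of freedom, common biological coefficient of variation 0.34). O3 was set against O1 by the quasi-likelihood F-test, and genes were called at a Benjamini-Hochberg adjusted p under 0.05. The day course was fitted likewise over 31 libraries, averaging the time points, and 1 of the 4 O1 time points held a single library. SE is the log2 difference over the square root of F. CPM values are scaled by TMM and are not divided by gene length, so levels are compared within a gene only. Thinly counted genes carry the largest errors, and 3 counts corresponded to 0.095 to 0.175 CPM.

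The rule for named genes took the core clock list and the 12 largest rises and falls among non-overlapping calls whose mean log2 CPM reached 2. It also took the 8 rises and 8 falls called in all 3 comparisons whose smallest absolute log2 difference was largest. Up to 4 members of each list with a call were added. The comparison, its members and the 46 gene lists were chosen with earlier results of these data known. Of the tested genes, 12277 matched RefSeq (Release 6), which was used for current names and neighbours only. On simulated counts for 12290 genes, the procedure recovered 53.6% of changes of 1 and 85% of changes of 2 on the log2 scale, with 2 false calls. The simulation drew each gene independently, without uneven tissue content between libraries, so it did not measure false calls from that source. Alternatives were DESeq2 1.42.0, RLE scaling, no filter, a replicate block, the 6 libraries alone and male reproductive genes removed. Each O3 and O1 library was also left out, except the only O1 library of 1 time of day, as were pairs of libraries. A further 2 alternatives were chosen after seeing the data: counts thinned to the smallest library, and marker sums scaled by library totals only.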

Additional observations from a re-analysis of the deposited data

Results flagged for a closer look

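The difference between O3 and O1 at 1 week differed from that at 6 weeks for 13 genes (edgeR test of the change of the strain difference, adjusted over all 12445 genes). What each gene showed is given here as the log2 difference at 1 week and then at 6 weeks, O3 minus O1, with the adjusted p of the change.

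In 5 genes the strain difference turned round: CG32198 (-2.08 and 2.72, adjusted p = 0.00522), Act88F (0.9 and -0.72, adjusted p = 0.00748), GstD2 (-0.86 and 0.43, adjusted p = 0.00748), Msp-300 (0.3 and -0.29, adjusted p = 0.0171) and CG10638 (-0.43 and 0.35, adjusted p = 0.0186). GstD2 did not pass the test at 6 weeks by itself. In 5 genes a difference was called at 6 weeks and not at 1 week: CG15434 (0 and 1.3, adjusted p = 0.00522), CG9642 (0.11 and -1.15, adjusted p = 0.00748), l(3)72Do (-0.16 and 0.53, adjusted p = 0.0155), CG2004 (-0.19 and 1.01, adjusted p = 0.0171) and CG3214 (-0.16 and 0.39, adjusted p = 0.0253). In 2 genes a difference was called at both ages and was larger at 6 weeks: Cyp4e3 (0.88 and 2.08, adjusted p = 0.0171) and Yp2 (-1.49 and -4.51, adjusted p = 0.0171). CG33926 (-2.62 and -0.52, adjusted p = 0.01) was called at 1 week and not at 6 weeks (adjusted p = 0.163), where its strains overlapped.

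CG9642, named SmydA-6 in RefSeq, had 18.7, 16.7 and 18 CPM in O3 and 16.9, 15.6 and 17 CPM in O1 at 1 week, and 4.28, 4.09 and 5.35 CPM in O3 and 10.5, 11.6 and 8.32 CPM in O1 at 6 weeks. CG2004 had 46.5, 47.5 and 59.4 CPM in O3 and 56.7, 51.1 and 67.3 CPM in O1 at 1 week, and 120, 111 and 121 CPM in O3 and 57.7, 49 and 68.6 CPM in O1 at 6 weeks. The co-chaperone gene l(3)72Do, named Hsc20 in RefSeq, had 12.9, 13.2 and 15 CPM in O3 and 16.2, 15.6 and 13.9 CPM in O1 at 1 week, and 25.1, 22.9 and 23.2 CPM in O3 and 16, 16.7 and 16.7 CPM in O1 at 6 weeks. Act88F, CG15434, CG32198, CG9642 and GstD2 were called in all alternatives run for this comparison.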

How the results depend on the processing

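For O3 against O1 at 1 week, against 825 calls, DESeq2 made 1524 (819 of the 825 among them), RLE scaling 984, no filter on low counts 626, removal of male reproductive genes 831 and thinning to the smallest library 718 (655 shared). The 6 libraries alone gave 24 calls, O3 library 3 alone against O1 gave 160 (138 shared) and O1 library 1 alone gave 1871 (556 shared), each lone library being assumed to vary like the other groups. For O3 against O1 at 6 weeks, against 643 calls, DESeq2 made 1250 and no filter 424. For O3 against O1, 1 week minus 6 weeks, against 13 calls, DESeq2 made 285. For O3 against O1 over the day, against 3773, the fits without a library left out made between 3596 and 3905. Except where fewer samples enter a fit, the cause of these shifts was not tested.

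With each O3 and O1 library left out in turn, calls ran between 371 and 1303 at 1 week, 339 and 473 at 6 weeks. For the change with age they ran between 5 and 1040. The 1040 came without O3 library 3 of 1 week and the 5 without O1 library 1 of 6 weeks. Over the day, calls ran between 3461 and 3894 in 20 fits, for 21 O3 and O1 libraries. The library that was never left out was the only O1 library of its time of day. Deviations of same-numbered O3 and O1 libraries correlated at -0.6, 0.49 and -0.51. Those of O3 library 3 with O1 library 1 correlated at 0.6, and those of O3 library 1 with O1 library 2 at 0.56. Since tissue content was uneven between the libraries, these values cannot decide whether replicate numbers pair them. With the replicate number as a block the fits made 717 calls for O3 against O1 at 1 week, 559 for O3 against O1 at 6 weeks, 11 for O3 against O1, 1 week minus 6 weeks, and 3705 for O3 against O1 over the day. Of 1658 pairs of named gene and alternative, 374 lost the call, 7 gained it and 0 turned a called difference round; differences that were not called did change sign, as in CG15434 (-0.1 to 0.22) and CG2004 (-0.31 to 0.03). Depth was higher in O3 (27.7 to 31.6 M counts) than in O1 (17.2 to 19.5 M), and small differences in thinly counted genes could not be resolved.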

Other observations

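Genes called in the same direction were in places neighbours on the chromosome. With the genes ordered by RefSeq, 6 runs of 3 adjacent tested genes were called the same way. How many such runs would arise from the number of calls alone was not tested. The runs higher in O3 were Ac3, CG43144 and Cul-2, then CG11825, CG33474 and Prx2540-1, then Pkc53E, CG43788 and CG43789, then CG34002, CR43086 and CR43087, and then CG8909, Lcch3 and Ranbp16. The elongase genes CG16904, CG9459 and CG9458 formed the one run lower in O3. Prx2540-1 has near-identical copies, the strand setting of the counting is not given in the sources used here, and reads shared between adjacent genes were not tested.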
